A study of Arabidopsis thaliana with 12 samples.

Results

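The gene set described here holds 53 of the 33602 genes counted in Arabidopsis thaliana seedlings, those whose transcripts measured much lower after abscisic acid (ABA) by about the same factor in wild type and in the cdk8 mutant. The 53 genes were chosen by the measured values themselves, in fragments of a gene relative to all fragments assigned in the library (CPM, the usual scaled count). On the log2(group mean CPM + 1) scale each had to be at least 3 lower with ABA than with mock in wild type and in cdk8. Its responses in the 2 genotypes had to differ by less than 1, and so did its mock levels. All differences between the 4 groups of libraries were thereby used in the selection, so for the 53 genes they are given as a description without a test.

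RNA was sequenced from whole seedlings aged 1 week, in 12 libraries, 3 in each of 4 groups: wild type with mock, cdk8 with mock, wild type with 50 µM ABA for 3 h, and cdk8 with that ABA treatment. The labels do not state the cdk8 allele, how many seedlings were pooled or whether libraries came from separate cultures, so p-values measure the spread between these libraries, which may be technical. The column headers call the mock libraries 0h, so ABA and 3 h of time or handling cannot be told apart in any response below. Libraries held 17675785 to 27415053 assigned fragments, and 3 fragments corresponded to 0.109 to 0.170 CPM. The 3 cdk8 ABA libraries were the deepest, with 24292745 to 27415053 fragments, and no other library held more than 21188494. By its label, cdk8 ABA library 3 has a library number outside the consecutive run of the others, for a reason not stated. CDK8 itself lay between 19.6 and 28.1 CPM in the wild-type libraries and between 5.24 and 10.8 CPM in the cdk8 libraries. Libraries 3 of wild-type ABA and 2 of cdk8 ABA stood apart from their groups, with chi-square values per gene of 24.6 to 30.7 against the other libraries of their group, where all other pairs within groups gave 6.26 to 11.4. In whole seedlings, fewer cells of a type and less RNA per cell cannot be told apart.

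ABA is a stress hormone that binds receptors of the PYR/PYL family. The bound receptors block PP2C phosphatases and so release SnRK2 kinases, which act on transcription factors that recognise ACGT-containing DNA. CDK8 is the kinase of the Mediator complex, which links transcription factors to RNA polymerase. In seedlings ABA is known for holding back cell expansion and lowering transcripts of photosynthesis, and expansins and xyloglucan-modifying enzymes are the proteins that let growing cell walls yield.

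By annotated product the 53 genes fell into 9 cell wall genes, 8 of photosynthesis and carbon metabolism, 5 of hormones and growth peptides, 4 of light signalling and transcription, 4 of metal reduction and transport, 2 kinases or phosphatases, 16 other enzymes and proteins, and 5 uncharacterized proteins. A gene symbol was available for 34 of them. Counts were made without strand, so those of 8 members with a counted gene on the opposite strand are uncertain (SLP1, STH, PnsL3, COL2, SPA3, LHCB2.3, ATSPS4F and AT4G12830). GASA6 and ACA1 are overlapped by opposite-strand annotations that were not counted, which makes 10 members with uncertain counts of this kind. Counts of genes with close copies, such as RBCS1B, LHCB2.3, FRO6, FRO7 and IGMT3, are uncertain too. FBA5 overlaps AT4G26520 on its own strand and SLP1 overlaps AT1G04537, so their counts are uncertain as well. Mock levels of the 53 genes ran from 18.4 to 1955 CPM, with a median of 65.2 CPM over the 6 mock libraries. Together they took 0.672% to 0.725% of fragments in wild-type mock, 0.734% to 0.799% in cdk8 mock, 0.0333% to 0.0399% in wild-type ABA and 0.0391% to 0.0458% in cdk8 ABA. The fall in mean CPM was 8.73-fold to 313-fold in wild type (median 19.5) and 8.19-fold to 221-fold in cdk8 (median 16.7). At least 16-fold was reached by 35 genes in wild type and 29 in cdk8, and at least 32-fold by 14 and 9. Every one of the 53 had its 3 ABA libraries below its 3 mock libraries in both genotypes. The narrowest gap was that of FBA5, whose lowest mock library stood 6.55 times above its highest ABA library in wild type and 5.68 times in cdk8.

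**Figure D1:**
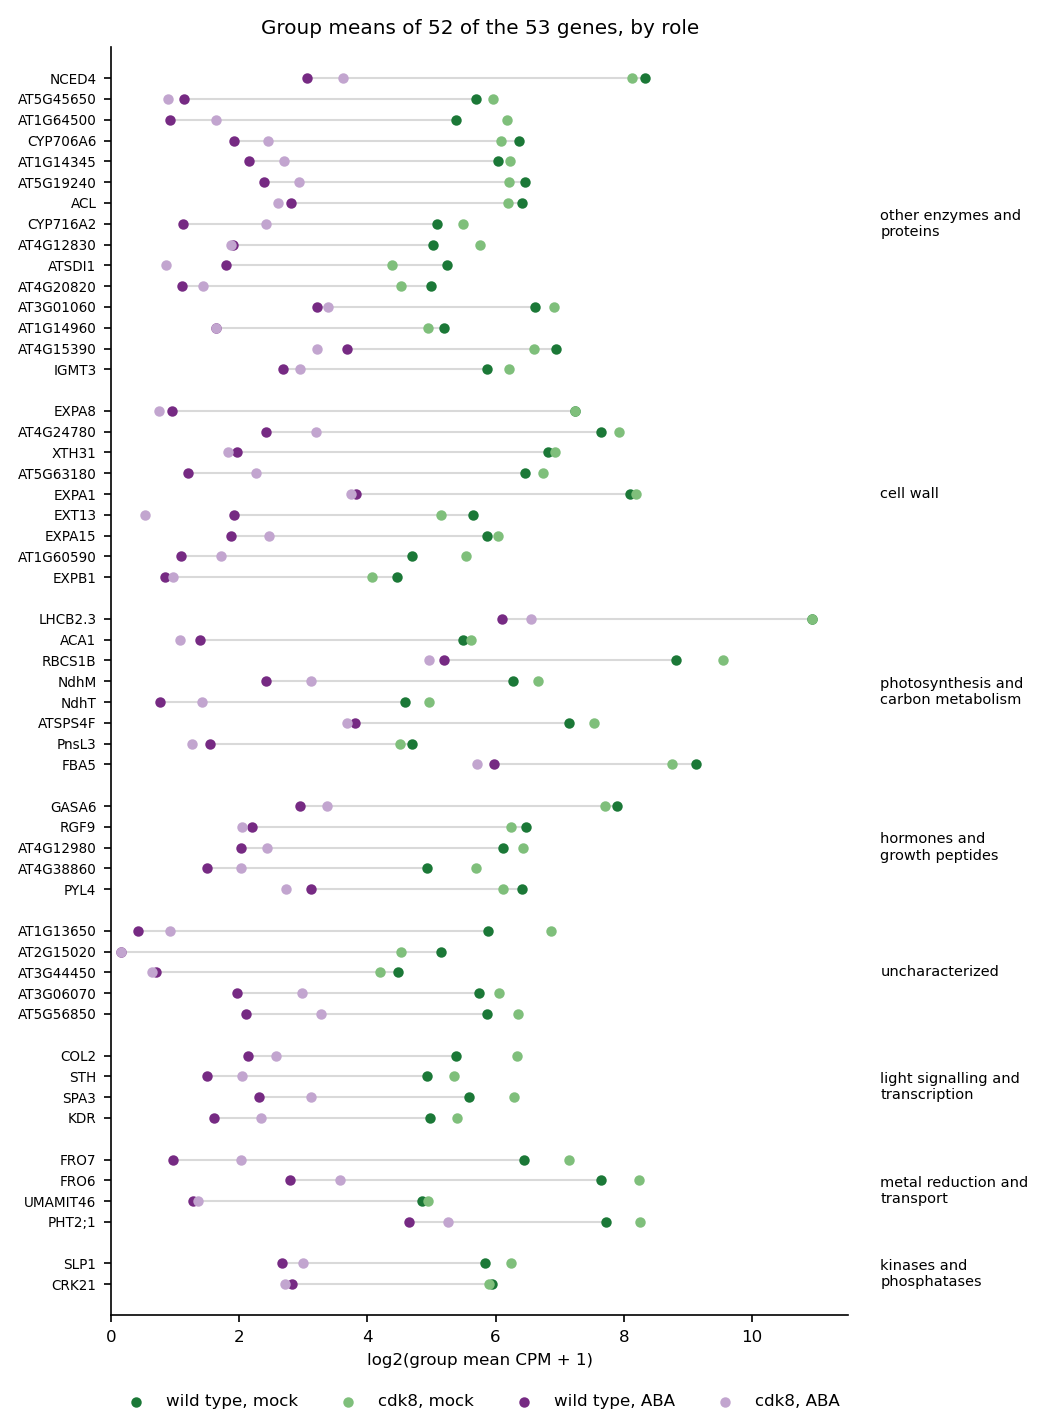
Group means of 52 of the 53 genes as log2(mean CPM + 1), 1 gene per row, grouped by role, with green dots for mock, purple dots for ABA, dark for wild type and light for cdk8. Both purple dots lie at least 3 units left of the green dot of the same genotype in each row, as the selection required, with mock means from 15.8 to 1956 CPM.

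Across the whole table the selection cut a thin edge. A fall of at least 3 was met by 129 genes in wild type, 99 in cdk8 and 59 in both, and 6 of these 59 were left out by the limits on the genotype differences. These 6 were AT1G73600, SQP1 and AT5G48490, which differed by 1.16, 1.31 and 1.05 between the mock groups, and UGT72E1, EXPB3 and EXT10, whose responses differed by 1.21, 1.03 and −1.13. Nearest inside the limit of −3 in its smaller response stood PHT2;1 (−3.0 in cdk8), followed by FBA5 and KDR (both −3.05) and AT3G06070 (−3.07). Nearest outside stood NAS1 (−2.98 in cdk8), AT5G66590 (−2.97 in wild type), and AT3G01260 and AT5G59130 (both −2.95, in cdk8 and wild type). The 1 CPM added before taking logs keeps genes of low mock level out, whatever their fold. Of all 21151 genes tested by edgeR's quasi-likelihood test at a Benjamini-Hochberg adjusted p under 0.05, 32.8% were called lower and 31.9% higher with ABA in wild type, and 30.4% lower and 30.6% higher in cdk8. All 53 passed the filter on low counts, and all 53 were called lower in both genotypes, which the selection largely fixed.

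**Figure D2:**
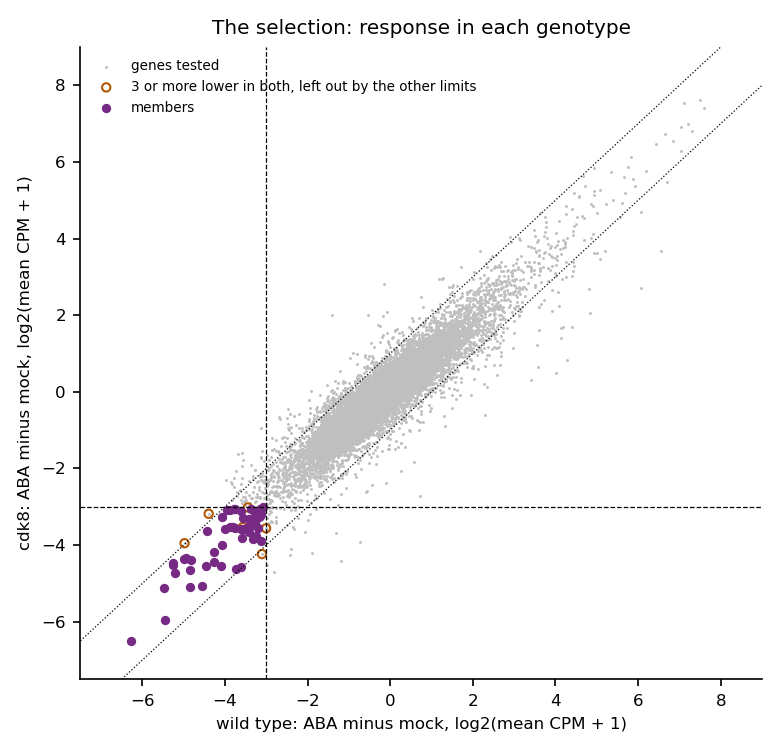
ABA minus mock on the log2(mean CPM + 1) scale, wild type on the x axis and cdk8 on the y axis, for all genes tested (grey), the 53 members (purple) and the 6 genes past −3 in both that were left out (open circles). Dashed lines mark −3 and dotted lines a difference of 1 between the genotypes, so the members fill the lower left corner between the dotted lines.

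To read the chosen genes in libraries that had no part in choosing them, the rule was applied with 1 mock and 1 ABA library of the same genotype left out, and the genes so chosen were read in that pair. Over the 18 pairs, which share libraries, 48 to 60 genes were chosen, and 77.2% to 96.2% of them were at least 3 lower in the left-out ABA library than in the left-out mock library. The share was 77.2% to 85.4% in the 6 pairs with an ABA library that stood apart and 84.6% to 96.2% in the other 12. At least 2 lower was reached by every chosen gene in 11 of these 12 pairs, and CYP71A12 (−1.84) was the exception in the remaining pair. In the 6 pairs 1 or 2 of the chosen genes fell short of 2, the least lower being AT5G03350 (−1.20) in wild type and AT3G22060 (−1.31) in cdk8. Of the 53 members, 38 were chosen again whichever single library was left out and 15 were lost at least once. The least steady were EXT13, chosen 7 of 12 times, and PHT2;1 and RBCS1B, each chosen 8 times.

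Sequence just upstream of the genes is shown for the 4 members that carry the letters CACGTG, the G-box to which ABA-responsive and light-responsive factors bind, and for EXPA8, which had the steepest mean response on the log2(mean CPM + 1) scale and does not carry them. Each is the 250 bases before the annotated gene start in the TAIR10.1 assembly of RefSeq, written 5′ to 3′ along the gene. Capitals mark ACGTG and GATAAG on either strand, and CACGTG holds ACGTG on both strands.
FRO6, chr5:20204596-20204845, minus strand: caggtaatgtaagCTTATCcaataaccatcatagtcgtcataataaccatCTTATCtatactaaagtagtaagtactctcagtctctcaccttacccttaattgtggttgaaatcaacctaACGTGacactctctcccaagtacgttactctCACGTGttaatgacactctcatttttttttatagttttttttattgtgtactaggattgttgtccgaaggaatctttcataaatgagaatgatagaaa
FRO7, chr5:20208778-20209027, minus strand: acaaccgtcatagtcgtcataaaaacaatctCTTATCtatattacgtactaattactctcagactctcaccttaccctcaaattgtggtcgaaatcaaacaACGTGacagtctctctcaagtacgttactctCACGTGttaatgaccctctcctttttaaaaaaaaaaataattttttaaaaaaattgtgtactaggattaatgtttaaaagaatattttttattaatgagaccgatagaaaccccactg
LHCB2.3, chr3:10255656-10255905, plus strand: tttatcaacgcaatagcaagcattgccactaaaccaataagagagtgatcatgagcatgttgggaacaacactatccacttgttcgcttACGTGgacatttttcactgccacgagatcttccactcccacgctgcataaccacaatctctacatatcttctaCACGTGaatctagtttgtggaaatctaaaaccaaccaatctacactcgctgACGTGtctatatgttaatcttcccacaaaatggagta
AT5G63180, chr5:25343370-25343619, minus strand: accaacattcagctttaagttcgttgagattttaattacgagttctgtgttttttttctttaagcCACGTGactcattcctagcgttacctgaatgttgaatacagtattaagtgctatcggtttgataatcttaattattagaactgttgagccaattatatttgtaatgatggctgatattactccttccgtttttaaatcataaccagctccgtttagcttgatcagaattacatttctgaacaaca
EXPA8, chr2:16950706-16950955, minus strand: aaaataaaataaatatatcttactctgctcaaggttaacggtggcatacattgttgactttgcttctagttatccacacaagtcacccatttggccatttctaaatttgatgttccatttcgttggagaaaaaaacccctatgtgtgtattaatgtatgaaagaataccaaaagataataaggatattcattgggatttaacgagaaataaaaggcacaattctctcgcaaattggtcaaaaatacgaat

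FRO6 and FRO7 were the 1 pair of members that are neighbours in the genome, and their upstream windows resemble each other. Aligned end to end they were identical in 194 of 273 columns (71.1%), and the longest shared run was 29 bases, caagtacgttactctCACGTGttaatgac, around the G-box. Over all members, ACGTG on either strand was found in 19 of 53 windows (35.8%) against 24.3% of 20517 windows of the same length in front of tested genes. The G-box CACGTG was in 7.55% of the members' windows and in 7.55% of all windows. The light-linked I-box GATAAG was in 12 (22.6%) against 12.3%. The W-box core TTGAC was in 26 (49.1%) against 45.4%. The evening element AAAATATCT was in 2, COL2 and FBA5 (3.77%), against 2.49%, and the CCA1-binding letters AAAAATCT in 2, CYP706A6 and AT4G20820 (3.77%), against 6.72%. Windows of some members, COL2 and FBA5 among them, overlap other annotated genes. TGTCTC, the auxin response element, was in 4 (7.55%) against 10.6%, and GGNCCC, bound by TCP factors, in 3 (5.66%) against 8.10%. All 8 motifs were searched on both strands, the list of motifs was chosen with results of these data known, and no test was run on the shares. Median GC content of the windows was 30% for members and 31.2% for all. Members were spread over the chromosomes, with 10, 7, 12, 13 and 11 on chromosomes 1 to 5, and their median summed exon length was 1315 bases against 1525 for all genes tested.

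The 9 cell wall genes were led by expansins, proteins that loosen the wall without cutting it. EXPA8 (AT2G40610) measured 161, 130.1 and 157 CPM in the wild-type mock libraries, 151, 160.2 and 141 in cdk8 mock, 0.921, 1.3 and 0.569 in wild-type ABA and 0.401, 0.446 and 1.19 in cdk8 ABA. Its mean was 161-fold lower with ABA in wild type and 221-fold lower in cdk8 (356-fold without cdk8 ABA library 3), and the mock groups overlapped, as did the ABA groups. EXPA1 (AT1G69530) measured 277, 278 and 264 CPM in the wild-type mock libraries, 282, 264 and 324 in cdk8 mock, 10.7, 10.5 and 18.1 in wild-type ABA and 11.4, 14 and 11.9 in cdk8 ABA. That made 20.8-fold and 23.4-fold, with the genotypes overlapping under both treatments and wild-type ABA library 3 the highest of the ABA libraries. EXPA15 was 21.5-fold lower in wild type and 14.4-fold in cdk8, and the beta-expansin gene EXPB1 26.5-fold and 16.7-fold. XTH31 (AT3G44990) measured 111, 100.2 and 122 CPM in the wild-type mock libraries, 133, 103 and 124 in cdk8 mock, 1.73, 2.38 and 4.66 in wild-type ABA and 3.25, 2.42 and 2.02 in cdk8 ABA. XTH31 belongs to the xyloglucan endotransglucosylases and hydrolases, which cut and rejoin the polymers that tether cellulose, and its mean was 38-fold and 46.9-fold lower. Of 3 pectin lyase-like proteins, a fold family that holds pectin-degrading enzymes, AT4G24780 had the highest level. AT4G24780 measured 207, 194 and 192 CPM in the wild-type mock libraries, 250.4, 239 and 239 in cdk8 mock, 3.58, 4.13 and 5.38 in wild-type ABA and 8.35, 8.96 and 7.2 in cdk8 ABA. Its 3 cdk8 libraries were above the 3 wild-type libraries under each treatment, and its folds were 45.3 and 29.7. AT5G63180 measured 67.3-fold and 27.9-fold lower, and AT1G60590 21.9-fold and 19.9-fold.

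EXT13, an extensin and so a hydroxyproline-rich protein that cross-links walls, differed between the genotypes with ABA more than the other 8 wall genes. EXT13 (AT5G35190) measured 59.4, 43.5 and 44.1 CPM in the wild-type mock libraries, 26.8, 47.4 and 29 in cdk8 mock, 1.9, 1.81 and 4.66 in wild-type ABA and 0.401, 0.186 and 0.741 in cdk8 ABA. All 3 cdk8 ABA libraries were below all 3 wild-type ABA libraries, and wild-type ABA library 3 was the highest of its group. Its mean fell 17.6-fold in wild type and 77.7-fold in cdk8. Without wild-type ABA library 3 the former was 26.4-fold, and without cdk8 ABA library 3 the latter was 117-fold. On the fitted log2 scale, which adds no 1 CPM, its response was −4.05 ± 0.33 (standard error) in wild type and −6.32 ± 0.42 in cdk8. On the selection's scale, which adds 1 CPM, the same difference between genotypes was −0.89. Other extensins, outside the selection, had fitted response differences of the same sign: EXT6 −1.59, EXT10 −1.46, EXT11 −1.89 and EXT12 −1.66, while EXT4 had 0.13. Of 15 genes with extensin, LRX or PRP symbols, EXT13 included, 11 were called lower in cdk8 with ABA and 0 higher. Beside them 13% of all genes were called lower and 10.6% higher. The median response difference of the 15 was −0.99.

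**Figure D3:**
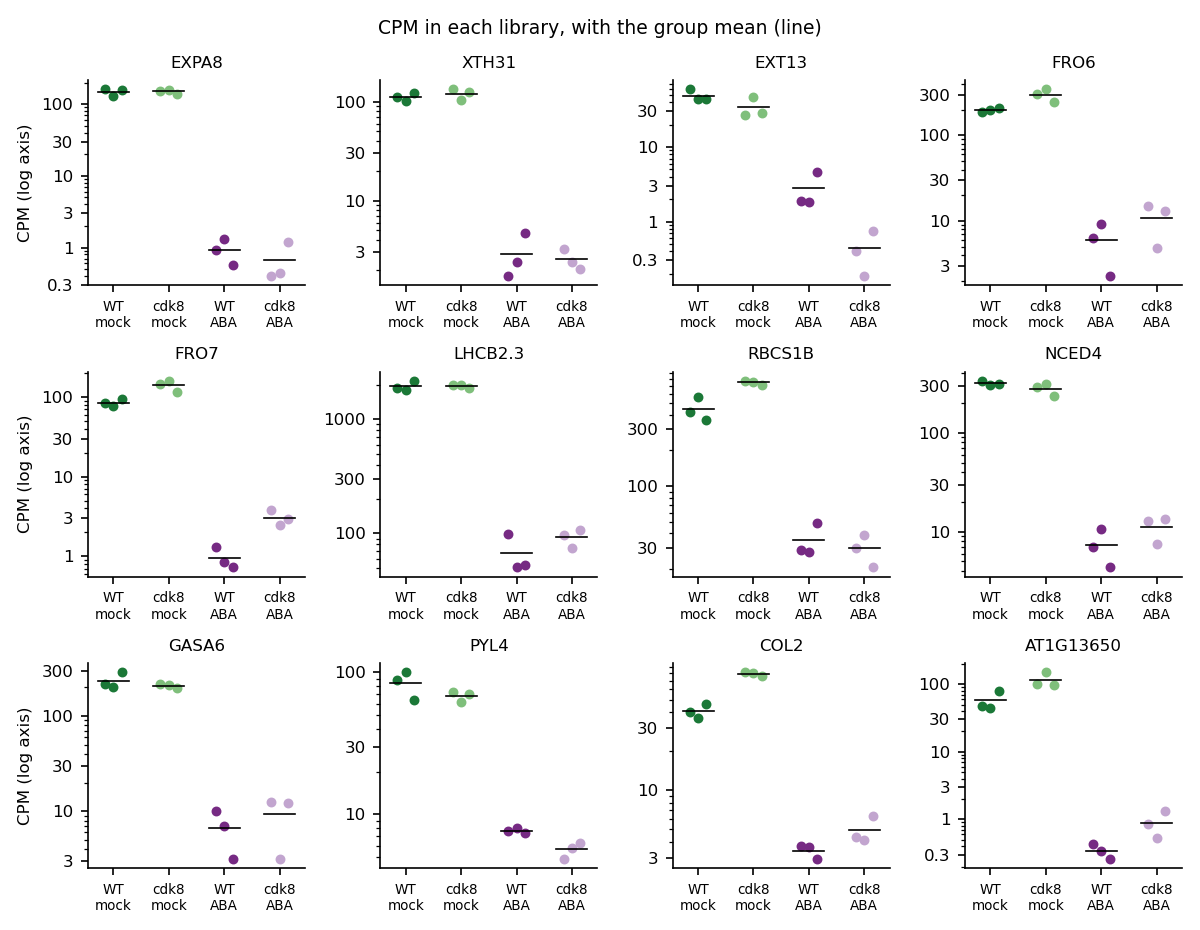
CPM of 12 members in each of the 12 libraries on log axes, points for libraries and lines for group means. EXPA8 lies between 130.1 and 161 CPM in mock and between 0.401 and 1.30 CPM with ABA, and for each of the 12 genes no ABA point reaches a mock point.

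Other wall families, chosen by symbol with earlier results known, moved in both directions. Of all genes tested, 32.8% were called lower and 31.9% higher in wild type, and 30.4% and 30.6% in cdk8. Counts of every list here and below stand beside these shares, and no list was tested against them. Of 16 alpha-expansins tested, 11 were called lower and 1 higher in wild type, and 12 lower and 3 higher in cdk8, with a median log2 fold change of −1.53 and −1.58 against −0.01 and 0.01 over all genes tested. EXPA16 was the exception in wild type, with group means of 1.53 CPM in mock and 184 CPM with ABA in wild type (log2 fold change 6.97, adjusted p = 1.58e-11) and 0.781 and 95.1 CPM in cdk8 (6.89, adjusted p = 3.94e-11). EXPA6, which missed the selection, measured −3.02 in wild type and −2.40 in cdk8 on the fitted log2 scale. Among 6 beta-expansins and expansin-like genes, EXPB1 and EXPB3 were called lower and the other 4 higher in both genotypes, EXLA1 by 3.75 and 4.06. Of 27 xyloglucan endotransglucosylases, 12 were lower and 9 higher in each genotype, with XTH24 higher by 2.97 and 2.53 and XTH25 higher by 7.0 and 5.65. Of 15 genes with extensin, LRX or PRP symbols, 11 were lower and 2 higher in wild type (1 higher with upper-quartile scaling) and 12 lower and 1 higher in cdk8. One of the 2 higher genes in wild type, PRP39 (0.27), is named for a splicing factor and shares the symbol prefix alone. LRX3 was higher in both genotypes, by 1.25 and 0.79. Arabinogalactan proteins, which held no member, were 21 lower and 10 higher of 41 in wild type and 21 lower and 12 higher in cdk8.

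**Figure D4:**
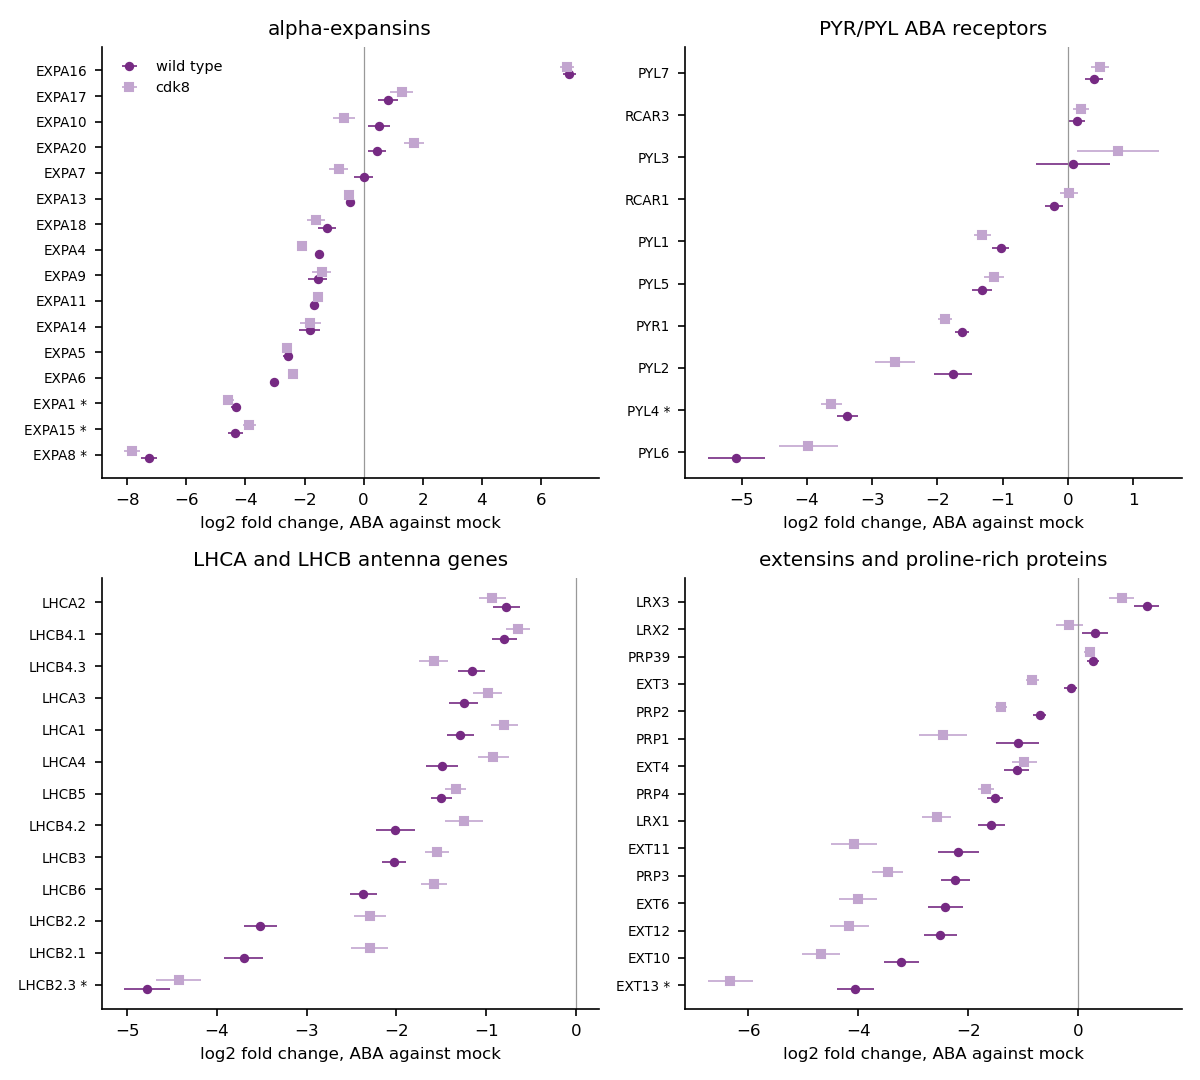
Fitted log2 fold changes, ABA against mock, of all tested genes of 4 families, circles for wild type and squares for cdk8, bars for standard errors, and a star for members. The 3 starred expansins have the lowest values of their family while EXPA16 stands near 7, and all 13 antenna genes lie below 0.

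Photosynthesis and carbon metabolism held the most abundant member. LHCB2.3 (AT3G27690) measured 1889, 1805 and 2173 CPM in the wild-type mock libraries, 1983, 2014 and 1863 in cdk8 mock, 99.2, 50.2 and 53.2 in wild-type ABA and 96.3, 74.6 and 108 in cdk8 ABA. LHCB2.3 encodes a chlorophyll-binding antenna protein of photosystem II, and its mean was 29-fold lower with ABA in wild type and 21-fold lower in cdk8. Per kilobase of exon it also had the highest mock level of the 53, 2066 CPM per kilobase, with RBCS1B second at 736. RBCS1B (AT5G38430) measured 423, 558 and 358 CPM in the wild-type mock libraries, 768, 754 and 709 in cdk8 mock, 29.3, 28.1 and 48.9 in wild-type ABA and 30.5, 39.1 and 20.7 in cdk8 ABA. RBCS1B, a small subunit of Rubisco, had all 3 cdk8 mock libraries above all 3 wild-type mock libraries, and its folds were 12.6 and 24.7. FBA5 (AT4G26530) measured 552, 536 and 582 CPM in the wild-type mock libraries, 449.997, 469 and 373 in cdk8 mock, 73.3, 81.8 and 29.6 in wild-type ABA and 57.3, 30.4 and 65.7 in cdk8 ABA. FBA5 encodes an aldolase. Its cdk8 mock libraries were below its wild-type mock libraries, and wild-type ABA library 3 and cdk8 ABA library 2 were the lowest of their groups. Its folds were 9.04 in wild type and 8.42 in cdk8.

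The remaining 5 genes of this class measured 10.8-fold to 32.8-fold lower in wild type and 13-fold to 43.2-fold lower in cdk8. ATSPS4F, a sucrose-phosphate synthase and thus an enzyme of sucrose synthesis, was 10.8-fold lower in wild type and 15.6-fold in cdk8. NdhM, NdhT and PnsL3 encode subunits of the chloroplast NAD(P)H dehydrogenase-like complex of cyclic electron flow. NdhM was 17.4-fold and 13-fold lower, NdhT 32.8-fold and 18-fold, and PnsL3 13-fold and 15.5-fold. ACA1, an alpha carbonic anhydrase, was 27.3-fold and 43.2-fold lower. All 13 LHCA and LHCB antenna genes tested were called lower in both genotypes, with median log2 fold changes of −1.5 and −1.34. LHCB2.1 and LHCB2.2, the closest relatives of LHCB2.3, measured −3.70 and −3.52 in wild type and −2.3 and −2.29 in cdk8, where LHCB2.3 measured −4.78 and −4.43. The 7 mesophyll markers were also called lower in both genotypes, with summed levels of 31693 to 33499 CPM in wild-type mock, 35514 to 38131 in cdk8 mock, 8858 to 9972 in wild-type ABA and 11611 to 12990 in cdk8 ABA. Their part in the lower levels of the photosynthesis members was not tested.

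Of 4 genes of metal reduction and transport, 2 were ferric reductases. FRO6 (AT5G49730) measured 188, 201 and 209 CPM in the wild-type mock libraries, 304, 346 and 249 in cdk8 mock, 6.34, 9.17 and 2.28 in wild-type ABA and 14.8, 4.87 and 13 in cdk8 ABA. FRO6 reduces ferric iron at the cell surface in green tissue, and its mean was 33.7-fold and 27.5-fold lower. FRO7 (AT5G49740) measured 84.6, 77.3 and 95 CPM in the wild-type mock libraries, 146, 160.3 and 116 in cdk8 mock, 1.3, 0.849 and 0.724 in wild-type ABA and 3.79, 2.49 and 2.92 in cdk8 ABA. FRO7, the chloroplast enzyme of the family, was 89.4-fold lower in wild type and 45.9-fold in cdk8, and its 3 cdk8 libraries stood above its 3 wild-type libraries under both treatments. FRO6 libraries of the genotypes did not overlap in mock but did with ABA. PHT2;1, a phosphate transporter of the chloroplast envelope, was 8.73-fold and 8.19-fold lower, the smallest cdk8 fold of the set. UMAMIT46, of a family of amino acid transporters, was 19.5-fold and 19-fold lower. Among 48 UMAMIT and SWEET transporters tested, 20 were lower and 14 higher in wild type, and 19 lower and 13 higher in cdk8.

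Hormone and peptide genes included an ABA receptor. PYL4 (AT2G38310) measured 87.9, 100 and 64.3 CPM in the wild-type mock libraries, 72.2, 62.3 and 70.2 in cdk8 mock, 7.64, 7.98 and 7.45 in wild-type ABA and 4.85, 5.84 and 6.3 in cdk8 ABA. PYL4 was 10.9-fold lower in wild type and 12.1-fold in cdk8, and the 3 cdk8 ABA libraries were below the 3 wild-type ABA libraries. Of 10 PYR/PYL receptor genes tested, 6 were called lower and 1 higher in each genotype (7 and 0 in wild type with upper-quartile scaling), and PYL6 measured −5.08 and −3.98 on the fitted log2 scale, with group means of 11.8 and 4.20 CPM in mock. All 9 clade A PP2C genes, whose proteins the receptors block, were called higher in both genotypes, HAI2 by 6.13 and 5.52. GASA6 (AT1G74670) measured 216, 203 and 288 CPM in the wild-type mock libraries, 216, 211 and 199 in cdk8 mock, 10, 7.02 and 3.16 in wild-type ABA and 12.6, 3.16 and 12.2 in cdk8 ABA. GASA6 encodes a small cysteine-rich peptide of a gibberellin-regulated family, and its folds were 35 and 22.4. Its lowest ABA values, both 3.16 CPM, were those of the libraries that stood apart. RGF9, a secreted root growth peptide, was 24.2-fold and 23.6-fold lower. AT4G38860, of the auxin-induced SAUR family, was 16.2-fold and 16.5-fold lower, and AT4G12980, annotated as auxin-responsive, 22-fold and 19.3-fold. Of 15 genes with a SAUR symbol, none of them a member, 13 were called lower and 2 higher in both genotypes, with median log2 fold changes of −3.20 and −3.55. Gibberellin synthesis and GASA genes were 7 lower and 4 higher of 14 in wild type and 8 lower and 5 higher in cdk8.

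Light signalling and transcription was represented by 4 genes, each with a higher mock mean in cdk8. COL2 (AT3G02380) measured 40.5, 36.1 and 46 CPM in the wild-type mock libraries, 81.4, 80.8 and 76.6 in cdk8 mock, 3.69, 3.62 and 2.95 in wild-type ABA and 4.38, 4.17 and 6.3 in cdk8 ABA. COL2, a B-box protein of the CONSTANS-like family, had its 3 cdk8 libraries above its 3 wild-type libraries under both treatments, and its folds were 12 and 16.1. SPA3 (AT3G15354) measured 47.3, 46 and 47.3 CPM in the wild-type mock libraries, 72, 83.5 and 74.5 in cdk8 mock, 4.23, 3.96 and 3.67 in wild-type ABA and 7.48, 7.55 and 8.03 in cdk8 ABA. SPA3, a partner of the COP1 ubiquitin ligase that removes light-signalling factors in darkness, was higher in all cdk8 libraries than in all wild-type libraries of the same treatment, with folds of 11.9 and 9.98. STH, another B-box protein, was 16.1-fold and 12.8-fold lower. KDR, a helix-loop-helix protein without the DNA-binding basic region, was 14.9-fold and 10.1-fold lower. Of 18 growth-linked bHLH genes tested, 10 were lower and 6 higher in wild type and 9 lower and 5 higher in cdk8. BEE2 and HBI1 measured −3.0 and −3.33 in wild type and −3.32 and −2.57 in cdk8, as log2 fold changes, while PIF3 and PIL2 were higher by 2.52 and 2.77 in wild type and 2.68 and 2.40 in cdk8.

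Among the other enzymes, NCED4 had the highest level. NCED4 (AT4G19170) measured 336, 307 and 315 CPM in the wild-type mock libraries, 289, 309 and 236 in cdk8 mock, 6.99, 10.6 and 4.35 in wild-type ABA and 12.8, 7.44 and 13.5 in cdk8 ABA. Despite its symbol NCED4 is known as a carotenoid cleavage dioxygenase that acts on pigments in chloroplasts, and its mean was 43.6-fold lower in wild type and 24.7-fold lower in cdk8. The subtilase gene AT5G45650, of a family of secreted proteases, was 42.3-fold and 71.4-fold lower. The cytochrome P450 genes CYP706A6 and CYP716A2 were 29.1-fold and 27.8-fold lower in wild type and 15-fold and 10.2-fold in cdk8, and CYP716A2 was 42.1-fold lower in wild type without wild-type ABA library 2. Of 171 P450 genes tested, 83 were lower and 39 higher in wild type, and 87 lower and 35 higher in cdk8, with CYP707A1, which breaks down ABA, higher by 4.78 and 4.65. AT5G19240, a GPI-anchored glycoprotein by annotation, was 20.5-fold and 11-fold lower, and the oxidoreductase-like gene AT1G14345 18.7-fold and 13.5-fold. ACL, annotated as acetone-cyanohydrin lyase, was 14.1-fold and 14.1-fold lower. A further 8 genes of this class, among them the sulfur-deficiency gene ATSDI1, were 10.3-fold to 45.5-fold lower in wild type and 10.9-fold to 33.7-fold in cdk8. CRK21 and SLP1, a receptor-like kinase and a chloroplast phosphatase, were 10-fold and 10.4-fold lower in wild type and 10.5-fold and 10.7-fold in cdk8. Of 34 CRK kinases tested, 23 were called lower and 2 higher in wild type (1 higher with upper-quartile scaling) and 21 lower and 4 higher in cdk8. CRK30 averaged 13.5 CPM over the wild-type mock libraries, 4.12 CPM over those of cdk8 mock, and had no counts in any ABA library. On the log2(mean CPM + 1) scale its response was −3.85 in wild type and −2.36 in cdk8, which kept it out of the selection.

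Among the members annotated only as uncharacterized proteins, AT1G13650 and AT2G15020 showed some of the steepest falls of the set. AT1G13650 measured 48.3, 44.4 and 80.1 CPM in the wild-type mock libraries, 99, 149.6 and 98.1 in cdk8 mock, 0.434, 0.339 and 0.259 in wild-type ABA and 0.839, 0.521 and 1.32 in cdk8 ABA. AT1G13650 was 167-fold lower in wild type and 129.5-fold in cdk8, and its 3 cdk8 libraries were above its 3 wild-type libraries under both treatments. AT2G15020 measured 28.5, 29.1 and 45.7 CPM in the wild-type mock libraries, 21.8, 23.4 and 20.8 in cdk8 mock, 0.217, 0.113 and 0 in wild-type ABA and 0.146, 0.112 and 0.0823 in cdk8 ABA. AT2G15020 had 4, 2 and 0 fragments in the wild-type ABA libraries, and its means were 313-fold and 194-fold lower (608-fold in wild type without wild-type ABA library 1). AT3G44450, AT3G06070 and AT5G56850 were 33.4-fold, 18.1-fold and 17.5-fold lower in wild type and 30.8-fold, 9.44-fold and 9.23-fold in cdk8, and without wild-type ABA library 3 AT3G44450 was 63.9-fold lower in wild type.

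Between genotypes the selection allowed differences of less than 1 on its own scale, and within that band the mock means of 34 members were above wild type in cdk8 and those of 19 below (median difference 0.26). With ABA 34 were likewise above and 19 below. How many of all genes lay above wild type was not counted. The fitted median difference was 0.26 in mock and 0.35 with ABA over members, and 0.002 and 0.005 over all genes tested. In the fit over all genes, 15 members were called higher and 2 lower in cdk8 mock, beside 5.15% of all genes called higher and 8.0% lower. The 15 were led by AT1G13650 (1.01 ± 0.22), COL2 (0.96 ± 0.13) and AT1G60590 (0.87 ± 0.17), and the 2 lower ones were ATSDI1 (−0.88 ± 0.15) and AT2G15020 (−0.64 ± 0.18). These are edgeR log2 differences, cdk8 minus wild type, with standard errors, and since they were part of what chose the genes they are given without a test. With ABA 16 members were called higher and 4 lower in cdk8, beside 10.6% and 13% of all genes. CYP716A2 (1.78 ± 0.43) and FRO7 (1.57 ± 0.27) were the highest, and the 4 lower ones were EXT13 (−2.78 ± 0.51), ATSDI1 (−1.69 ± 0.26), AT4G15390 (−0.61 ± 0.17) and PYL4 (−0.55 ± 0.17). The ABA responses were called different in 4 members, 1 with a weaker fall in cdk8 and 3 with a stronger one, beside 2.37% and 2.85% of all genes. By the limits of the selection, responses that differed by 1 or more on the log2(CPM + 1) scale could not be in the set, so no share of genotype differences is read from it.

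Spread between libraries was wider after ABA, where levels were low. The median coefficient of variation over the 53 genes was 10.3% in wild-type mock, 7.80% in cdk8 mock, 28.1% in wild-type ABA and 24.5% in cdk8 ABA. Within the ABA groups, wild-type library 3 and cdk8 library 2 were both the lowest of their group for 15 members (28.3%) and both the highest for 8 (15.1%). Over the 9668 genes with at least the mock mean of the lowest member, these shares were 22.8% and 24.3%. The 15 genes included FRO6, FRO7, GASA6, NCED4, FBA5, NdhM, ACA1 and COL2, and none of the 9 cell wall genes. The 8 genes included the wall genes EXPA1, EXPA15, AT4G24780 and AT5G63180, with RBCS1B, KDR, IGMT3 and AT3G01060. In log2(CPM + 1), FRO6 was 1.42 lower in wild-type library 3 and 1.34 lower in cdk8 library 2 than in the other libraries of the group, and GASA6 1.20 and 1.69 lower. EXPA1 was 0.71 and 0.25 higher, AT5G63180 0.59 and 0.73 higher, and RBCS1B 0.75 and 0.59 higher. The classes were formed from product names, the pattern was noticed in these values, and no test was run on it. With both libraries left out, the rule chose 59 genes, 48 of them among the 53.

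**Figure D5:**
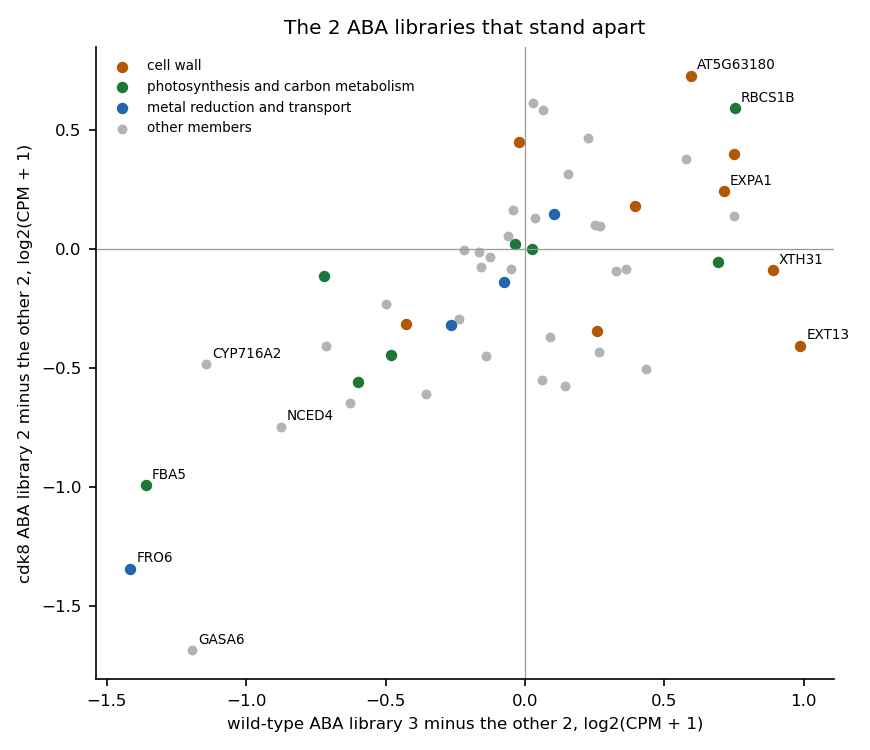
For each of the 53 genes, wild-type ABA library 3 against its group's other 2 libraries (x axis) and cdk8 ABA library 2 against its group's other 2 (y axis), both as differences of log2(CPM + 1), with 3 role classes coloured. FRO6, FBA5 and GASA6 lie farthest to the lower left, and 4 of the 9 wall genes are highest of their group in both libraries.

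Markers of other tissues were read in the same libraries. Beside them, 32.8% of all genes tested were called lower and 31.9% higher in wild type, and 30.4% and 30.6% in cdk8. Of 9 root hair markers, 5 were called lower and 1 higher in wild type and 7 lower and 1 higher in cdk8. Endodermis markers were 4 lower and 1 higher of 9 in both genotypes, and guard cell markers 2 lower and 1 higher of 6 in wild type and 3 lower and 1 higher in cdk8. Of 6 xylem markers 3 were higher in wild type (1 with upper-quartile scaling) and 1 in cdk8, of 3 phloem markers 1 was higher in cdk8 alone, and of 3 epidermis markers 1 was higher in wild type and 1 lower in cdk8. Their part in the levels of the members was not tested. Families without a member were counted in the same way. Each list holds the genes matched by symbol or gene ID, so family genes without a matching symbol can be missing. Aquaporins were 7 lower and 4 higher of 18 in wild type and 8 lower and 3 higher in cdk8, Aux/IAA repressors 11 lower and 6 higher of 21 and 8 lower and 7 higher, and receptor-like proteins 18 lower and 11 higher of 48 and 23 lower and 8 higher. WRKY factors were 13 lower and 23 higher of 57 in wild type and 17 lower and 22 higher in cdk8, and nitrate transporters 3 lower and 4 higher of 10 in both. Brassinosteroid synthesis genes were 5 lower of 10 in wild type and 3 lower in cdk8. The class III peroxidase list matched 5 genes and cannot be read as the whole family. Of these, 1 was lower in wild type, and 3 were lower and 1 higher in cdk8.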

How the data were processed

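RNA of 12 whole-seedling libraries was compared. The deposited table gives a fragment count per gene and library, per the file headers from featureCounts 1.4.6 in paired-end mode with no strand option, over exons of a TAIR10 annotation. The submitters' processing notes name FastQC, TopHat2, featureCounts and TAIR10. How libraries were made and reads aligned is not stated in the labels or headers.

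CPM values are counts divided by column totals, without other scaling. Members follow the stated limits on log2(group mean CPM + 1). The members, the 29 gene lists (22 families and 7 marker sets), the roles and the motifs were chosen with earlier results of these data known. Genes kept by filterByExpr (21151 of 33602) were tested with edgeR 4.0.16 in R 4.3.3 (limma 3.58.1), with TMM scaling, a quasi-likelihood F test, 1 design of 4 group means over all 12 libraries, 5 comparisons, and calls at 0.05 after Benjamini-Hochberg adjustment of p. The procedure was run on simulated counts with the same spread for every gene, changes in wild-type ABA alone and no library standing apart. That run checked recovered fold changes and cannot speak for libraries that stand apart. Named were CDK8, the 12 members with the lowest mean response, the 10 with the highest mock CPM, those nearest the limits, up to 4 per role by mock CPM per kilobase, and per list its members and up to 2 other called genes in each direction. Other members, EXPB3, EXLA1, XTH25, LRX3, PYL6, CRK30 and genes given to complete a small count were named after their values were seen. The values of 1 member are not reported here, though counts over the 53 include it. Symbols and upstream sequence came from RefSeq TAIR10.1, read by its own coordinates. There 89.8% of the table's exon edges were found, and all 53 members had an entry. Only 32.3% of nuclear genes had the same start and end in both annotations, so the upstream windows depend on the RefSeq gene starts. Alternatives were DESeq2 1.42.0, RLE or upper-quartile scaling, no filter, the 2 groups alone, each library left out, pairs of libraries left out, a replicate block, and other settings of the selection.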

Additional observations from a re-analysis of the deposited data

Results flagged for a closer look

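In 4 of the 53 genes the difference between the ABA responses of the genotypes, cdk8 minus wild type on the fitted log2 scale, was past the threshold that edgeR's fit over all 21151 genes set. Beside these 4, with 1 higher and 3 lower, 2.37% of all genes were called higher and 2.85% lower. No result about the members is read from this count. The selection limited this same difference, so for the members the values are a description and not a test. EXT13 had −2.27 ± 0.59 (standard error), AT4G12830, an alpha/beta-hydrolase, −0.90 ± 0.20, ATSPS4F −0.64 ± 0.16 and CYP706A6 0.86 ± 0.23. The sign of EXT13 was shared by EXT6, EXT10, EXT11 and EXT12, which are outside the set and were not past the threshold. AT4G12830 stayed past the threshold whichever of the 12 libraries was left out. EXT13 was past it in 5 of the 12 such fits (−2.82 to −1.69), ATSPS4F in 4 (−0.75 to −0.51) and CYP706A6 in 2 (0.64 to 1.08). The libraries whose absence ended the EXT13 call were replicates 2 and 3 of wild-type mock, 1 and 2 of cdk8 mock, 3 of wild-type ABA, and 1 and 2 of cdk8 ABA. CYP706A6 kept its call without cdk8 ABA replicate 2 and without wild-type ABA replicate 2. ATSPS4F lost its call without any 1 of the wild-type mock replicates, cdk8 mock replicates 1 and 2, wild-type ABA replicate 1, or cdk8 ABA replicates 1 and 3. Counts of AT4G12830 and ATSPS4F are uncertain, since genes on the opposite strand overlap them.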

How the results depend on the processing

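All 53 members were called lower with ABA in both genotypes under every scaling, filter, tool, pair fit, replicate block and left-out library tried. For the 12 steepest members, all 312 values under left-out libraries and upper-quartile scaling kept direction and call, a direction and call that the selection largely fixed. Of these log2 fold changes, 3 moved by over 1.5-fold: AT2G15020 in wild type from −8.16 to −9.11 without wild-type ABA replicate 1 and to −7.56 without its replicate 3, and EXPA8 in cdk8 from −7.84 to −8.49 without cdk8 ABA replicate 3. Of 636 folds of mean CPM recomputed without 1 library, 6 in 5 members moved by over 1.5 times, none of them without a mock library, and the lowest was 7.0. The number of genes chosen depended on the limits: 82 with 0.5 CPM added in place of 1, 133 at a fall of 2.5 and 28 at 3.5, and 50 to 57 with each library left out in turn. Members called between genotypes moved from 17 to 31 in mock and from 20 to 10 with ABA when the 2 groups were fitted alone. Calls over all genes moved likewise. In mock they went from 1089 higher and 1692 lower of 21151 to 1977 and 2495 of 20608. With ABA they went from 2244 and 2755 of 21151 to 1118 and 1813 of 20387. Members called in mock ran from 10 (without cdk8 mock replicate 2) to 21 over left-out libraries. At these ends 471 higher and 1015 lower, and 1452 and 1980, of all genes were called. The cause was not tested. Members with different responses were 4, against 10 with DESeq2. Of all genes, 501 had a higher response difference called and 602 a lower one, against 672 and 1051 with DESeq2. Over left-out libraries such members numbered 1 to 6. They were 1 without wild-type mock replicate 2 or 3, cdk8 mock replicate 1 or 2, or cdk8 ABA replicate 1, and 2 without wild-type mock replicate 1 or wild-type ABA replicate 1. With a replicate block, added after seeing the data, this count was 1, while those between genotypes were 13 and 18. Calls over all genes became 302 higher and 348 lower in response, 790 and 1411 in mock, and 1784 and 2363 with ABA. Same-numbered libraries correlated from −0.294 to 0.157 in their deviations from the group means. With 3 libraries per group, and 1 library standing apart in each ABA group, these values cannot settle whether the numbers pair the samples. Upper-quartile scaling moved the median of all genes in wild type from −0.009 to −0.146 (log2). With it, counts in wild type became 1 for higher extensins and PRP genes, 1 for higher CRK kinases, 0 for higher PYR/PYL receptors, 2 for lower class III peroxidases, 1 for higher xylem markers and 1 for lower epidermis markers. In cdk8 lower phloem markers became 1, and higher genes of a terpene synthase list went from 4 to 2 of 10, a list whose TPS symbols also name trehalose-phosphate synthases. Levels after ABA rest on few fragments for some members, such as AT2G15020.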
